A study of Mus musculus with 16 samples.

Results

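Secondary disease was compared with 7 days of doxycycline in the bone marrow, gene by gene, in mouse leukaemia cells that carry the inv(16) fusion gene CBFB::MYH11 and GFP. The comparison uses 7 of the 16 libraries of the study: all 4 of secondary disease and all 3 of bone marrow doxycycline, taken by their titles. The cells held a doxycycline-inducible shRNA directed at MYH11 and were transplanted into congenic mice. In the bone marrow doxycycline group, mice drank water with 3 mg/ml doxycycline and 5% sucrose for 7 days once leukaemia had engrafted, and GFP-positive cells were sorted from the marrow. In the secondary disease group, a separate cohort of mice was kept on doxycycline until signs of fatal disease, and GFP-positive cells came from the spleen. The reference groups were bone marrow control and spleen control, 3 libraries each, from mice given 5% sucrose water for 7 days. Tissue, cohort and time on treatment therefore all differ between the groups compared, and their parts in any difference cannot be told apart. The control libraries are labelled only as cells expressing the fusion, whereas the design text describes transduced cells in both arms. No group received doxycycline without the shRNA, and the time from treatment to fatal disease was not stated. Library titles number the replicates without saying that they came from separate animals, so the spread behind each p may be technical. These are bulk libraries of sorted cells, so fewer cells of a type and less RNA per cell cannot be told apart.

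CBFB is the partner that stabilises RUNX proteins on DNA, and in the fusion it is joined to the tail of a smooth muscle myosin, which interferes with RUNX-dependent blood cell differentiation. Lowering the fusion in such cells is known to release differentiation programmes. A leukaemia that grows out under continued treatment can in principle keep those changes, lose them, or acquire others, and the comparison addresses which of these the RNA shows.

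Libraries held 12259707 to 39419370 expected counts, and 14435 genes passed the filter on low counts. Levels are given as CPM, the usual depth-scaled counts, after TMM scaling, in the order of the replicate numbers. Replicate 4 of secondary disease stood apart: it was the shallowest library, its highest correlation with its own group was 0.825 against 0.984 to 0.989 for the others, and 7.78% of its counts were mitochondrial against 1.99 to 5.3% elsewhere. A group of 22 genes typical of neural tissue, chosen after the data were seen, summed to 7160 CPM there and to 180 to 322 CPM in the other 15 libraries. Values are therefore given with and without it. As to cell type, Kit measured 54.1 to 270 CPM and Spn 302 to 738 CPM in the libraries of these 4 groups, both genes of blood progenitor cells, while the pan-leukocyte gene Ptprc stayed at 1.45 to 17.3 CPM and the T cell genes Cd3e and Trac at 0 to 1.15 CPM. A list of T and NK cell genes summed to 200 CPM in replicate 4 of secondary disease, where Cd3g was at 2.17 CPM, and to 17.3 to 39.8 CPM in the other libraries of these groups. In the authors' TPM, counts scaled by gene length and depth, its member Thy1 was at 121.37 in replicate 4. In the other 15 libraries Thy1 was at 0.03 to 1.22 TPM. Cd3e and Trac were at 0 CPM in replicate 4. The fusion transcript itself was not measured. Differences are log2 fold changes with their standard error (SE) and Benjamini-Hochberg adjusted p from edgeR's quasi-likelihood test over all genes. Cbfb, whose counts include the normal allele, stood at 90.4, 90.1 and 96.9 CPM in bone marrow doxycycline and at 137, 133, 127 and 72.2 CPM in secondary disease. The groups overlapped through replicate 4, and the difference did not pass (log2 fold change 0.34 ± 0.25 SE, adjusted p = 0.392; 0.51 and adjusted p = 0.107 without replicate 4). Myh11 was not among the genes tested.

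Secondary disease differed widely from the 7-day bone marrow group. At an adjusted p under 0.05, 1955 genes (13.5% of those tested) were called, 909 higher (6.3%) and 1046 lower (7.25%) in secondary disease. Of these, 613 and 669 differed at least 2-fold. Without replicate 4, 2933 genes (20.6%) were called, 1246 higher (8.74%) and 1687 lower (11.8%). Of the genes called with all libraries, 775 of 909 and 999 of 1046 were also called without it in the same direction. The CPM of the 4 and 3 libraries did not overlap for 4824 genes (33.4%). The count rested on every bone marrow doxycycline library, since it was 626, 509 and 737 without replicate 1, 2 or 3 of that group, and limma-voom split 1778 calls into 621 higher and 1157 lower.

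The 7-day response itself, bone marrow doxycycline against bone marrow control, held 572 raised genes (3.96%) and 377 lowered genes (2.61%), 949 in all (6.57%). In secondary disease 471 of the 572 raised genes (82.3%) were called lower than in bone marrow doxycycline, and 315 of the 377 lowered genes (83.6%) were called higher. No gene was called further in its 7-day direction, and 101 and 62 were not called. Both comparisons share the 3 bone marrow doxycycline libraries, so a gene that is high or low in those libraries by sampling alone also moves back, and these counts are not independent of the 7-day calls. Seen from the other side, 594 of the 909 genes higher in secondary disease and 575 of the 1046 lower ones had not been called at 7 days. Without replicate 4, the 7-day response held 2428 genes (17%), 1292 raised (9.06%) and 1136 lowered (7.96%). Of these 947 (73.3%) and 800 (70.4%) were called back, with 1 and 3 called further. The size of the 7-day response depended on each bone marrow library: leaving out 1 of the 3 controls gave 187, 23 or 232 genes, in the order of their numbers, and leaving out 1 of the 3 doxycycline libraries gave 191, 111 or 178. Of the 23 genes, found without control replicate 2, 22 were called back. After the difference between the controls of spleen and bone marrow was subtracted in the same model, 167 and 98 of the 949 genes were called back, with none further. Their median log2 fold changes, over all raised and all lowered genes, were −1.36 and 1.59, against −1.25 and 1.44 without the subtraction. This contrast holds both bone marrow groups that defined the genes. Without replicate 4, 494 and 423 of the 2428 genes were called back after the subtraction, with 1 and 2 further. In that contrast 450 genes (3.12%) were called, 179 higher (1.24%) and 271 lower (1.88%). Without replicate 4 it held 1276 genes (8.95%), 554 higher (3.88%) and 722 lower (5.06%). Between the spleen and bone marrow controls themselves 27 genes differed (0.187%), 11 higher (0.0762%) and 16 lower (0.111%) in spleen. Without replicate 4 of secondary disease in the model these were 190 (1.33%), 66 (0.463%) and 124 (0.869%).

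The extent of the return was measured on the log2 scale as the distance covered from the mean of bone marrow doxycycline, set at 0%, to the mean of bone marrow control, set at 100%. The median was 89.8% for raised genes (interquartile range 76.1 to 104%) and 91.3% for lowered genes (76.8 to 107%). Of the raised genes, 28 stopped nearer to doxycycline than to control, 362 lay nearer to control and 180 lay beyond it, and 2 had moved slightly away. Of the lowered genes these numbers were 23, 224, 128 and 2. By library, secondary disease replicates 1 to 3 had 93.2 to 94.8% of raised genes and 92.6 to 93.6% of lowered genes nearer to the bone marrow control mean. Replicate 4 had 80.1 and 74.3%. Spleen controls, which never received doxycycline, had 88.6 to 92% and 87 to 90.2%. The first 3 secondary disease libraries thus lay at or above the spleen controls by this measure and replicate 4 below them. The median return gave another order for raised genes: 92.9, 85.5, 87.7 and 92.1% in secondary disease and 95.6, 91.4 and 92.8% in spleen control. For lowered genes it was 93.9, 94.7, 95.6 and 83.7% against 92.5, 89.4 and 89.9%. Spleen doxycycline, after 7 days of treatment, varied by library. Its replicates 1, 2 and 3 had 87.8, 21.3 and 45.5% of raised genes nearer to bone marrow control. For lowered genes they had 92, 10.6 and 64.5%.

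**Figure D1:**
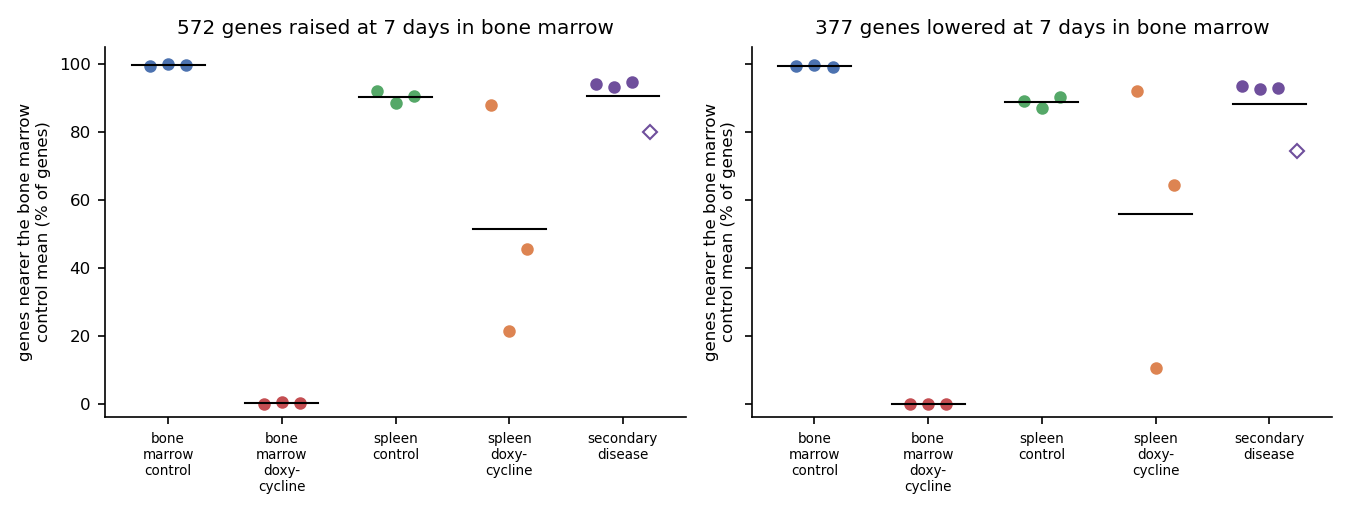
Share of the genes raised (left) or lowered (right) at 7 days in bone marrow that lie nearer to the bone marrow control mean than to the bone marrow doxycycline mean, in percent, for each of the 16 libraries. Points are libraries, lines are group means and the open diamond is secondary disease replicate 4, at 80.1 and 74.3%. The bone marrow libraries lie near 0 or 100% because they defined the genes.

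A comparison without shared libraries set secondary disease against spleen control, the untreated group of the same tissue. Here 293 genes (2.03%) were called, 108 higher (0.748%) and 185 lower (1.28%). Of the 949 genes of the 7-day bone marrow response, 912 were not called, which does not show that they were equal. The median log2 fold change was 0.06 for the 572 genes raised at 7 days, where it had been 1.39, and 0.06 for the 377 lowered genes, where it had been −1.58. Over all genes tested the median was 0.02. Among raised genes 13 were still above spleen control and 15 were below it. Among lowered genes 2 were still below and 7 were above. The 15 genes still on the doxycycline side were Lmna, Aqp8, Chd3, Dap, Il9r, Lipe, Mppe1, Nos1ap, Pdlim1, Ptpre, Sgsh, Slc22a23, Spred1, Sytl5 and Zcwpw1, of which all but Lmna are named here after their values were seen. Of these, Dap, Ptpre, Sgsh and Spred1 were also called back from bone marrow doxycycline, and the others were not. Ptpre measured 19.5 to 28 CPM in secondary disease, 20.7 to 29.2 CPM in bone marrow control and 12.5 to 15.9 CPM in spleen control. Leaving out single libraries gave 61 to 523 calls, the lowest without spleen control replicate 2. Without replicate 4 of secondary disease the 523 genes (3.67%) were 163 higher (1.14%) and 360 lower (2.52%), and 27 raised and 27 lowered genes of the then 2428 were still on the doxycycline side.

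**Figure D2:**
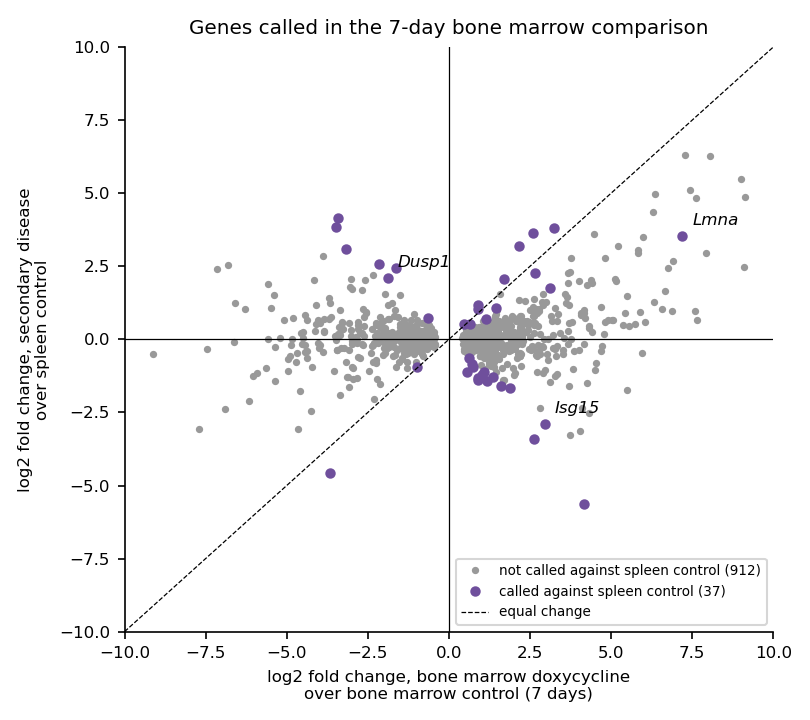
Log2 fold change of the 949 genes called at 7 days in bone marrow (x axis, bone marrow doxycycline over control) against their log2 fold change in secondary disease over spleen control (y axis), 2 comparisons with no library in common. Purple points are the 37 genes called against spleen control, and most genes lie along the horizontal line at 0, with Lmna above it at 3.54 and Isg15 below it at −2.89.

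Many erythroid genes fell. These genes make haemoglobin, the haem it binds and the red cell membrane. Hbb-bs (ENSMUSG00000052305, chromosome 7, 103826534 to 103828096, minus strand, GRCm38), an adult β-globin gene, stood at 14400, 17700 and 18300 CPM in bone marrow doxycycline and at 812, 1420, 1700 and 609 CPM in secondary disease. The groups lay far apart, a log2 fold change of −3.88 ± 0.83 (adjusted p = 0.00983), while secondary disease was near or above the controls, which held 190 to 672 CPM in bone marrow and 361 to 789 CPM in spleen. Alas2, which starts erythroid haem synthesis, measured 628, 816 and 735 CPM against 39.6, 59.6, 73.8 and 19.4 CPM (−3.91 ± 0.74, adjusted p = 0.00616), within or near the spleen controls at 28.8 to 53.3 CPM. Of 19 globin and haem synthesis genes tested, 13 were lower in secondary disease, 0 higher and 6 not called, with a median log2 fold change of −2.08 beside 0.03 over all genes. After subtraction of the control difference 4 were called, with a median of −2.03. Of the 13 raised at 7 days, 11 were called back, among them Hba-a1 (−2.75), Hba-a2 (−3.53), Ppox (−1.50) and Urod (−1.43), the last 2 being haem synthesis enzymes. That share is close to the 82.3% called back over all genes raised at 7 days. Counts called back in the lists below are to be read beside that 82.3%, or the 83.6% over all lowered genes. How reads were divided among the near-identical globin copies is uncertain. Haemoglobin genes took 4.5 to 5.6% of counts in bone marrow doxycycline, 0.385 to 0.649% in secondary disease and 0.212 to 0.467% in the controls of both tissues.

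Of red cell membrane, enzyme and surface genes 16 of 26 were lower, 0 higher, and the median was −1.49. The anion exchanger gene Slc4a1 measured 1590, 1570 and 1800 CPM in bone marrow doxycycline and 156, 215, 247 and 43.3 CPM in secondary disease (−3.32 ± 0.84, adjusted p = 0.0214), and the red cell enzyme genes Bpgm (−2.19) and Blvrb (−1.38) were also lower. Against spleen control edgeR called 0 of these 26 genes, with 3 higher and 2 lower at an unadjusted p under 0.05, while DESeq2 called 3 higher and limma-voom 0. After subtraction of the control difference the median stayed at −1.40 but edgeR called 0, and 2 lower without replicate 4. Among 20 erythroid and megakaryocyte regulators, 7 were lower and 0 higher, and all 6 that had been raised at 7 days were called back. Gata2, which acts in blood stem cells, mast cells and early erythroid precursors, measured 577, 844 and 616 CPM against 194, 258, 224 and 194 CPM (−1.64 ± 0.29, adjusted p = 0.00448), and Gata1, the master factor of red cells and platelets, 417, 438 and 498 CPM against 319, 321, 302 and 244 CPM (−0.61 ± 0.13, adjusted p = 0.0106). Klf1 (−1.41) and Nfe2 (−1.07), which drive globin genes, followed. In these 4 regulators secondary disease lay close to or below both control groups, without overlap with bone marrow doxycycline. GATA factors bind the letters AGATAA, in reverse TTATCT. These were searched on both strands in the 250 bases before the gene start in sequences from RefSeq (GRCm38.p6), and 6 of 18 matched genes of the red cell membrane list held them (33.3%), 2 of 15 globin and haem genes (13.3%) and 7.71% of the tested genes matched. The match in Alas2 (chrX:150547284-150547383, plus strand) and that in Hbb-bs (chr7:103828079-103828178, minus strand) are in capitals in 100 bases each, 5′ to 3′ on the gene's strand.
Alas2: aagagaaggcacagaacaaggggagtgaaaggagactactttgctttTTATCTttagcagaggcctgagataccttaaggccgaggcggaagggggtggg
Hbb-bs: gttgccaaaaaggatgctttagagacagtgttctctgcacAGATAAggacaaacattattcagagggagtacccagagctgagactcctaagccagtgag

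**Figure D3:**
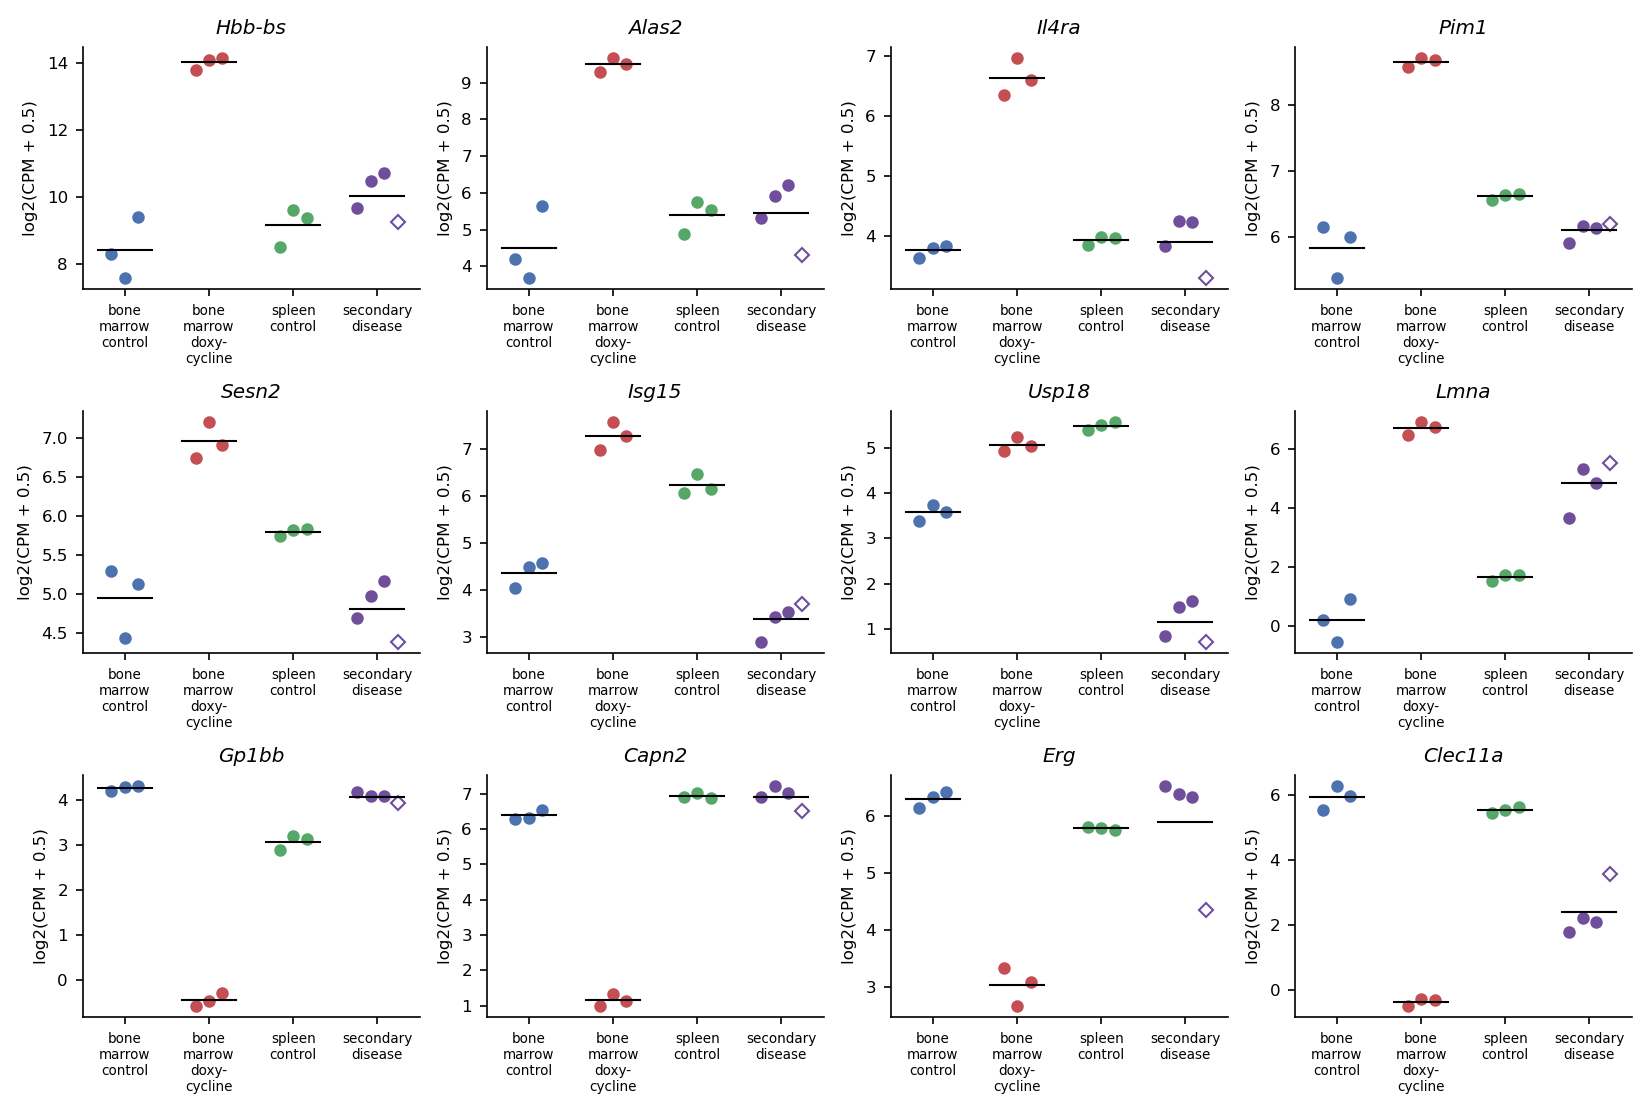
Level of 12 genes in each library as log2(CPM + 0.5), by group; lines are group means and open diamonds mark secondary disease replicate 4. Hbb-bs, Alas2, Il4ra, Pim1, Sesn2, Gp1bb, Capn2 and Erg lie near bone marrow control, spleen control or both in most secondary disease libraries. Lmna and Clec11a lie between, and Isg15 and Usp18 lie below all 3 other groups.

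A few genes of stem and progenitor cells and of platelets were higher in secondary disease. Erg (ENSMUSG00000040732, chromosome 16, 95359169 to 95586593, minus strand), an ETS factor of stem cells, stood at 9.6, 5.86 and 8.05 CPM in bone marrow doxycycline and at 91.5, 82.5, 79.7 and 19.9 CPM in secondary disease (3.13 ± 0.84, adjusted p = 0.0277). Replicates 1 to 3 were within or above the range of the bone marrow controls, 70 to 84.8 CPM, and replicate 4 was much lower than they were. Spleen controls lay between replicate 4 and the other replicates. Etv6, its relative, measured 40.5 to 42.9 CPM against 70 to 134 CPM (1.40 ± 0.34, adjusted p = 0.0175), and the leukaemia-associated homeobox gene Meis1 13.7 to 16.4 against 47.1 to 73.3 CPM (2.01 ± 0.54, adjusted p = 0.0271). Of 24 RUNX complex and stem cell factors tested, 4 were higher and 1 lower, 19 were not called and the median was 0.53. Without replicate 4 these were 6 higher and 2 lower, with a median of 0.15. The 3 lowered at 7 days were called back. Runx1, which had not been called at 7 days, measured 155, 146 and 148 CPM in bone marrow doxycycline and 173, 170, 171 and 99.4 CPM in secondary disease, against 224 to 255 CPM in bone marrow control and 221 to 259 CPM in spleen control. The groups overlapped through replicate 4, and neither the difference from bone marrow doxycycline (0.04 ± 0.28, adjusted p = 0.947) nor that from spleen control (−0.63, adjusted p = 0.301) passed.

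Gp1bb, a subunit of the platelet receptor for von Willebrand factor, stood at 0.171, 0.221 and 0.316 CPM in bone marrow doxycycline and at 17.7, 16.6, 16.6 and 14.8 CPM in secondary disease. This is a log2 fold change of 6.09 ± 1.15 (adjusted p = 0.00587), and bone marrow control had 18 to 19.5 CPM. Spleen control lay below every secondary disease library. Treml1, of platelet granules, measured 2.17 to 3.2 against 30 to 51.5 CPM (4.00 ± 0.98, adjusted p = 0.0186). For Treml1 too, spleen control lay below most secondary disease libraries. Of 15 megakaryocyte and platelet genes, 3 were higher (also Rab27b) and 2 lower (Itgb3 and Tubb1), and the 3 higher ones were those lowered at 7 days. Without replicate 4 the list had 3 higher and 4 lower. Against spleen control it had 0 higher and 2 lower. Tek, a receptor tyrosine kinase for angiopoietins, measured 7.38, 7.81 and 7.07 CPM against 99.6, 115, 112 and 30.5 CPM (3.59 ± 0.91, adjusted p = 0.0216), again with replicate 4 lowest.

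Among the genes with the largest increases were some almost silent at 7 days. Exosc6 (ENSMUSG00000109941, chromosome 8, 111056339 to 111057664, plus strand), encoding an RNA exosome subunit, held 0, 0 and 0.355 CPM in bone marrow doxycycline, where 3 counts correspond to 0.11 to 0.128 CPM, and 16.7, 20.4, 18.9 and 19.7 CPM in secondary disease. Its log2 fold change was 7.26 ± 1.49 (adjusted p = 0.00826), and all 6 control libraries of both tissues lay between 18.9 and 24 CPM. Capn2 (ENSMUSG00000026509, chromosome 1, 182467260 to 182517608, minus strand), the large subunit of m-calpain, measured 1.74 ± 0.268 CPM (SD, n = 3) in bone marrow doxycycline and 122 ± 24.1 (n = 4) in secondary disease, a log2 fold change of 6.12 ± 1.13 (adjusted p = 0.00531). Spleen control was at 122 ± 5.51 CPM, and bone marrow control lay below most secondary disease libraries. Nos3, the endothelial nitric oxide synthase gene, went from 0.171 to 0.405 up to 12 to 19.6 CPM (5.73), Ctla2a, encoding a cathepsin inhibitor, from 0.256 to 0.7 up to 12.5 to 26.8 CPM (5.14), and Rgs1, which damps G protein signalling, from 0.184 to 0.474 up to 5.92 to 12.5 CPM (4.71). In these 5 genes no library of secondary disease overlapped bone marrow doxycycline, which the naming rule required for all but Rgs1.

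Among cytokine signalling and survival genes, most of which were not called, a few differed. Il4ra (ENSMUSG00000030748, chromosome 7, 125552120 to 125579474, plus strand), a receptor chain for IL-4 and IL-13, measured 80.9, 124 and 95.9 CPM in bone marrow doxycycline and 13.6, 18.4, 18.3 and 9.28 CPM in secondary disease (−2.74 ± 0.31, adjusted p = 0.000818). Spleen control was at 13.9 to 15.3 CPM, within the range of secondary disease. Pim1, a kinase induced by STAT factors, measured 382, 420 and 411 CPM against 59.5, 71.4, 69.4 and 72.6 CPM (−2.57 ± 0.40, adjusted p = 0.00231). Bcl2l1, encoding the survival protein BCL-XL, measured 219, 235 and 271 CPM against 84.9, 113, 104 and 107 CPM (−1.24 ± 0.20, adjusted p = 0.00279). Kit, the stem cell factor receptor gene, was also lower (−0.99 ± 0.31, adjusted p = 0.0461). It had not been called at 7 days, although bone marrow control, at 101 to 157 CPM, did not overlap bone marrow doxycycline, at 239 to 270 CPM. In secondary disease Kit stood at 137, 163, 166 and 54.1 CPM, and in spleen control at 62.8 to 78.9 CPM. Il6st, the shared receptor chain of the IL-6 family, was higher (1.85 ± 0.30, adjusted p = 0.00294). Of 32 cytokine receptor and STAT feedback genes 4 were higher, 5 lower and 23 not called, and the 5 called at 7 days all moved back. Of 31 BCL2 family and p53 target genes 5 were lower, 1 higher and 25 not called. Trp53inp1 (−2.46) and Mdm2 (−0.78), both p53 targets, were lower, and Tigar, a p53 target that limits glycolysis, was higher (3.45).

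Of 42 cell cycle genes 5 were called, 2 higher and 3 lower, a share no larger than the 13.5% over all genes. The 4 that had been called at 7 days all moved back. Cdk6, a kinase bound by D cyclins, measured 140, 122 and 133 CPM in bone marrow doxycycline and 446, 346, 381 and 219 CPM in secondary disease (1.40 ± 0.23, adjusted p = 0.00279). Ccnd2 measured 133 to 186 against 335 to 455 CPM (1.37 ± 0.27, adjusted p = 0.00689), while Ccnd3 measured 432 to 567 against 102 to 131 CPM (−2.05 ± 0.42, adjusted p = 0.00830). The inhibitor genes Cdkn2c and Cdkn1b were lower, with log2 fold changes of −1.12 and −0.86. The list's median was −0.05, and the proliferation marker Mki67 stood at 1300 to 1440 CPM in bone marrow doxycycline and at 1310, 1110, 1240 and 499 CPM in secondary disease (−0.38 ± 0.33, adjusted p = 0.488).

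The integrated stress response, in which amino acid shortage or other stress induces ATF4 and its targets, had many members lower in secondary disease. Of 27 of its genes, 13 were lower and 0 higher (median −0.72), and all 11 raised at 7 days were called back. After subtraction of the control difference 5 were called, with a median of −0.88. Asns, asparagine synthetase, measured 836, 917 and 956 CPM in bone marrow doxycycline and 210, 228, 228 and 153 CPM in secondary disease (−2.14 ± 0.43, adjusted p = 0.00760). Sesn2, which reports amino acid supply to mTORC1, measured 107, 147 and 120 CPM against 25.5, 31, 35.3 and 20.4 CPM (−2.15 ± 0.29, adjusted p = 0.00120). Atf5 (−2.27) and Trib3 (−2.21), a factor and a feedback gene of the pathway, and Sars (−0.72), a tRNA synthetase, were lower too. Against spleen control edgeR and limma-voom called 0 of this list and DESeq2 2 lower, with 1 higher and 3 lower at an unadjusted p under 0.05 in edgeR and a median of 0.02.

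Immediate early genes, which answer growth factor and MAP kinase signals within minutes, were mostly not called. The share called was still above the 13.5% over all genes. Fos measured 3.2, 2.06 and 1.07 CPM in bone marrow doxycycline and 14.2, 31.7, 42.8 and 57 CPM in secondary disease (4.11 ± 1.12, adjusted p = 0.0297). Bone marrow controls ranged from 43.7 to 151 CPM and spleen controls from 9.15 to 18.8 CPM. Dusp2, a MAP kinase phosphatase gene, measured 1.66 to 3.55 against 22.2 to 29.1 CPM (3.23 ± 0.85, adjusted p = 0.0257). Of 28 such genes 6 were higher and 1 lower, the latter being the antiproliferative gene Btg2 (−2.39). Only 3 of the 8 lowered at 7 days were called back, a smaller share than the 83.6% over all lowered genes. Egr1, a zinc finger factor, stood at 27.5 to 41.3 CPM in bone marrow doxycycline and 34.2 to 97.3 CPM in secondary disease (0.75 ± 0.37, adjusted p = 0.199), and Dusp1, another phosphatase gene, at 15 to 22 and 12.2 to 32.3 CPM (0.06 ± 0.39, adjusted p = 0.934; −0.27 without replicate 4). Both overlapped. The controls of the tissues differ here: Egr1 measured 128 to 237 CPM in bone marrow control and 35.1 to 45.3 CPM in spleen control, and Dusp1 30.7 to 116 and 4 to 5.03 CPM. Against spleen control Dusp1 was higher in secondary disease (2.11, adjusted p = 0.0193).

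For some genes with the largest 7-day changes, the mean of secondary disease lay between those of doxycycline and control. Lmna, the gene of A-type lamins, which line the nucleus (ENSMUSG00000028063, minus strand of chromosome 3, 88480147 to 88509956), stood at 88, 119 and 105 CPM in bone marrow doxycycline and 12.1, 38.7, 28.1 and 44.7 CPM in secondary disease. The groups did not overlap, but the difference did not pass (−1.76 ± 0.72, adjusted p = 0.122). Secondary disease remained above spleen control, which held 2.38 to 2.8 CPM (3.54 ± 0.85, adjusted p = 0.0494), and the return was 28.8%. Clec11a, a growth factor of bone and blood progenitors, measured 0.213, 0.331 and 0.316 CPM against 2.94, 4.14, 3.75 and 11.3 CPM (4.21 ± 1.51, adjusted p = 0.0800), well below the 43.2 to 76.8 CPM of the controls, a return of 44%. Pklr (return 49.5%), the red cell pyruvate kinase gene, Atp7b (45.2%), a copper transporter gene, Hbb-bt (47.3%), a minor adult β-globin gene, and Rab3il1 (53%), a Rab exchange factor gene, all had lower levels than at 7 days with no overlap and did not pass, with adjusted p from 0.0510 to 0.282. None of them was called against spleen control either. Sphk1, which makes sphingosine 1-phosphate, did pass: 139, 199 and 125 CPM against 4.43, 5.55, 5.47 and 8.76 CPM (−4.69 ± 0.87, adjusted p = 0.00533), with controls at 1.04 to 2.36 CPM.

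The summed level of interferon-stimulated genes was below that of both control groups. These genes answer type I and type II interferon through STAT and IRF factors and encode antiviral proteins. Of 43 tested, 29 were lower than in bone marrow doxycycline and 0 higher (median −1.68), and 27 were lower than in spleen control and 0 higher (median −2.02). DESeq2 called 32 and 34 lower, limma-voom 27 and 28, and both called 0 higher. Without replicate 4 these were 32 lower and 1 higher, and 30 lower and 0 higher. Their sum was 928, 933, 919 and 806 CPM in secondary disease. It was 1370 to 1770 CPM in bone marrow control, 2290 to 2960 CPM in bone marrow doxycycline and 2520 to 2660 CPM in spleen control, with no overlap between secondary disease and any of these groups. Spleen doxycycline, outside the groups compared, was at 1810, 2910 and 1020 CPM. Its replicate 3 thus lay below both control groups and near secondary disease. At 7 days 5 of the genes had been raised, all of them called back, and 1 had been lowered. Many of them carry in their promoters the interferon-stimulated response element, to which STAT and IRF complexes bind. It was searched as GAAA, 2 bases of any kind and GAAA, on both strands (in reverse TTTC, 2 bases and TTTC), in the same RefSeq promoter windows. Of 31 matched genes of the list 13 (41.9%) held it, against 326 of 10030 matched genes tested (3.25%). Among the matched genes called lower it was in 8 of 20 (40%), and among those not called lower in 5 of 11 (45.5%), so the element was about as frequent in both. A pair of promoters is shown, 100 bases each, 5′ to 3′ on the gene's strand, with the element in capitals. In Isg15 (chr4:156200830-156200929, minus strand) 3 overlapping matches form 1 run, and in Ifit1 (chr19:34640759-34640858, plus strand) there are 2.
Isg15: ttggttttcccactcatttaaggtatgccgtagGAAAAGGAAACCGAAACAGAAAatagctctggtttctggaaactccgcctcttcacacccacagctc
Ifit1: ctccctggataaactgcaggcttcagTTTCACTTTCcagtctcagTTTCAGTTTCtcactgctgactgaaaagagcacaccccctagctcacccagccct

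Isg15 (ENSMUSG00000035692), a ubiquitin-like modifier, measured 126, 191 and 155 CPM in bone marrow doxycycline and 6.91, 10.2, 11 and 12.6 CPM in secondary disease (−3.96 ± 0.52, adjusted p = 0.00120). Spleen controls held 66.6 to 88.9 CPM and bone marrow controls 15.9 to 23.3 CPM, so every secondary disease library was below every other library of these groups. Usp18, which removes that modifier, measured 29.8, 37.3 and 32.2 CPM against 1.28, 2.27, 2.58 and 1.13 CPM (−4.16 ± 0.49, adjusted p = 0.000818) and was also lower than in spleen control (−4.59, adjusted p = 0.000607). Ifit1, whose product binds viral RNA, measured 51.2, 68 and 61 CPM against 1.28, 2.74, 4.65 and 0 CPM (−4.74 ± 1.04, adjusted p = 0.0112). It differed from the pattern in that spleen control was low too, at 4.53 to 4.93 CPM, with no call between the groups (−1.06, adjusted p = 0.701). Oas2 (ENSMUSG00000032690, chromosome 5, 120730333 to 120749853, minus strand), an antiviral oligoadenylate synthetase, measured 26, 55.8 and 19.5 CPM against 0.414, 0.0782, 0.039 and 0 CPM (−7.81 ± 0.90, adjusted p = 0.000818). In 3 of these 4 libraries the level was under 3 counts, so the size of this fold is uncertain. Rtp4 (−5.93), Oasl2 (−5.86) and Lgals3bp (−4.91), all inducible by interferon, were among the largest decreases, and Irf9, a subunit of the interferon-activated STAT complex, was lower by a smaller amount (−1.61).

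Interferon-inducible GTPases and MHC class I genes, which share that induction and serve cell-autonomous defence and antigen display, gave 9 of 32 lower and 0 higher against bone marrow doxycycline (median −0.72), and likewise 9 lower and 0 higher against spleen control (median −0.94). None had been called at 7 days. B2m, the light chain of MHC class I, measured 219, 260 and 257 CPM in bone marrow doxycycline, 288 to 338 CPM in spleen control and 142, 153, 137 and 117 CPM in secondary disease (−0.84 ± 0.15, adjusted p = 0.00421). The GTPase genes Igtp (−2.19), Irgm1 (−1.91) and Tgtp2 (−3.29) were lower with no overlap. Macrophage and dendritic cell genes, which another cell type in the sort could bring, summed to 92, 29.9, 41.5 and 207 CPM in secondary disease and to 83.8 to 129 CPM in bone marrow doxycycline. Their part in the interferon result was not tested.

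**Figure D4:**
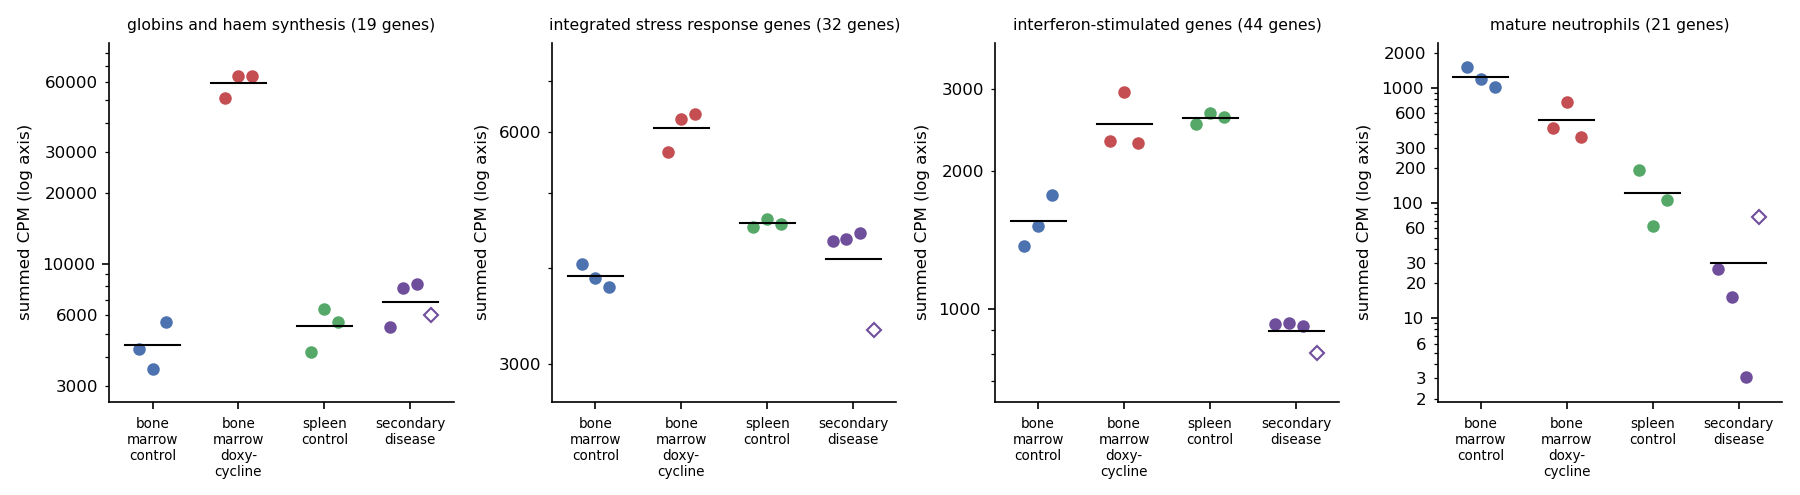
Summed CPM (log axis) of 4 gene lists in each library; lines are group means and open diamonds mark secondary disease replicate 4. Globin, haem and stress response genes lie near the controls in secondary disease, interferon-stimulated genes lie below every library of the other 3 groups at 806 to 933 CPM, and the sums of mature neutrophil genes are lower in spleen control than in bone marrow control.

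Mature neutrophil genes gave the lowest list median. Of 18 tested, 15 were lower in secondary disease and 0 higher (median −4.56), and all 18 were lower without replicate 4. Ltf, lactoferrin, measured 76.9, 132 and 60.4 CPM in bone marrow doxycycline and 4.31, 2.11, 0.351 and 4.16 CPM in secondary disease (−5.08 ± 0.84, adjusted p = 0.00297). Chil3 (−5.26), Cd177 (−5.01), Camp (−4.90), Lcn2 (−4.68) and S100a8 (−4.54), all made by maturing neutrophils, were alike. The 21 genes of the list found in the table summed to 1010 to 1510 CPM in bone marrow control, 373 to 751 CPM in bone marrow doxycycline, 62.7 to 195 CPM in spleen control and 3.05 to 75.3 CPM in secondary disease. Between spleen and bone marrow controls edgeR called 0 of the 18, and 6 lower without replicate 4 of secondary disease, with a median of −3.37. After subtraction of the control difference none of the 6 genes just named was called (adjusted p from 0.306 to 0.770), and against spleen control edgeR called only Chil3 of the list, with 11 lower at an unadjusted p under 0.05, while DESeq2 called 9 lower and limma-voom 0. The part of mature neutrophils or their RNA in other results was not tested. Among adhesion and homing receptors 7 of 26 were lower and 0 higher, including the leukocyte integrin chains Itgb2 (−1.99) and Itgb7 (−1.85), with a median of −1.07. After subtraction of the control difference 1 of the 26 was called and the median was 0.02, and between the controls the median was −1.20.

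Some sterol genes were higher. Of 31 genes of cholesterol synthesis and its control, 11 were higher, 0 lower and 20 not called (median 0.50). After subtraction of the control difference 1 was called, and 2 had been called, as lowered, at 7 days. Hmgcs1, an early enzyme of the pathway, measured 23.9, 20.1 and 25 CPM in bone marrow doxycycline and 65.8, 73.9, 64.7 and 89.9 CPM in secondary disease (1.68 ± 0.23, adjusted p = 0.00139). Bone marrow control was at 41.3 to 49.6 CPM and spleen control at 49.2 to 56.3 CPM, below every secondary disease library. Fdps (0.88), which makes farnesyl diphosphate, and Insig1 (0.94), a sterol sensor, were also higher. Against spleen control edgeR and limma-voom called 0 of the list (median 0.08), with 4 higher and 1 lower at an unadjusted p under 0.05 in edgeR, and DESeq2 called 2 higher and 1 lower. Of 31 glycolysis and hypoxia genes 5 were higher and 2 lower: the phosphofructokinase gene Pfkp measured 89.9 to 103 against 284 to 381 CPM (1.79 ± 0.33, adjusted p = 0.00526), and the glucose transporter gene Slc2a1 268 to 346 against 61 to 93 CPM (−1.98 ± 0.435, adjusted p = 0.0113).

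Among the other large increases, 3 were shared by all secondary disease libraries. Serpinb1a, an inhibitor of neutrophil proteases, stood at 5.25, 6.74 and 5.69 CPM in bone marrow doxycycline and 212, 563, 402 and 212 CPM in secondary disease (5.88 ± 1.16, adjusted p = 0.00706), above the 98.3 to 127 CPM of spleen control. Ahnak, a giant scaffold protein gene, measured 5.57 to 13.3 against 203 to 679 CPM (5.55 ± 0.90, adjusted p = 0.00279), and Tnfsf14, the cytokine LIGHT, 0.128 to 0.442 against 6.59 to 17.3 CPM (5.41 ± 1.36, adjusted p = 0.0211). Others were carried largely by replicate 4. Camk2a, a neuronal kinase gene, measured 1.28, 1.02, 0.625 and 233 CPM, with a log2 fold change of 9.69 that became 3.78 without replicate 4 (adjusted p = 0.0240). Cplx2, a synaptic gene, measured 11.6, 7.23, 6.29 and 296 CPM (6.92, then 3.66), and Clstn1, a neuronal calsyntenin gene, 19.6, 16, 15.6 and 276 CPM (5.02, then 2.77). The tubulin-binding gene Tppp measured 9.23, 25, 15.5 and 104 CPM against 0.0427 to 0.158 CPM, and remained at 7.08 without replicate 4 (adjusted p = 0.000563). All 4 were called in both fits, which the rule that named them required. Vgf, a secreted neuropeptide precursor raised at 7 days to 23.3, 61.5 and 28.9 CPM, measured 1.53, 1.6 and 1.87 CPM in replicates 1 to 3 and 126 CPM in replicate 4. It was not called with all libraries (−0.22, adjusted p = 0.930) and was called lower without replicate 4 (−4.50, adjusted p = 0.00254).

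Several groups had a share of edgeR calls below the 13.5% over all genes, in some cases not far below it. Of 40 cytosolic ribosomal protein genes, all 3 tools called 0, and 0 passed in edgeR even at an unadjusted p under 0.05. The median was 0.14, and −0.09 with 1 lower without replicate 4. Of 30 MYC and ribosome biogenesis genes 2 were higher and 1 lower (median 0.16), and Myc itself stood at 189 to 236 CPM against 206 to 344 CPM with overlap (0.46 ± 0.23, adjusted p = 0.194). Of 30 unfolded protein response genes 2 were higher, including Edem1 (1.14), of the degradation of misfolded proteins. Mitochondrially encoded genes had a median of 1.06 (0.65 without replicate 4) with 1 of 15 called by edgeR, 9 by DESeq2 and 0 by limma-voom. mt-Cytb measured 2290 to 2910 CPM against 6790, 4120, 3850 and 11200 CPM (1.29 ± 0.39, adjusted p = 0.0441), and it did not pass without replicate 4 (0.89, adjusted p = 0.0768). Markers of T and NK cells, macrophages, B cells and stroma gave 1 of 13, 1 of 20, 2 of 21 and 0 of 9 genes lower, and 0, 0, 0 and 1 higher.

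**Figure D5:**
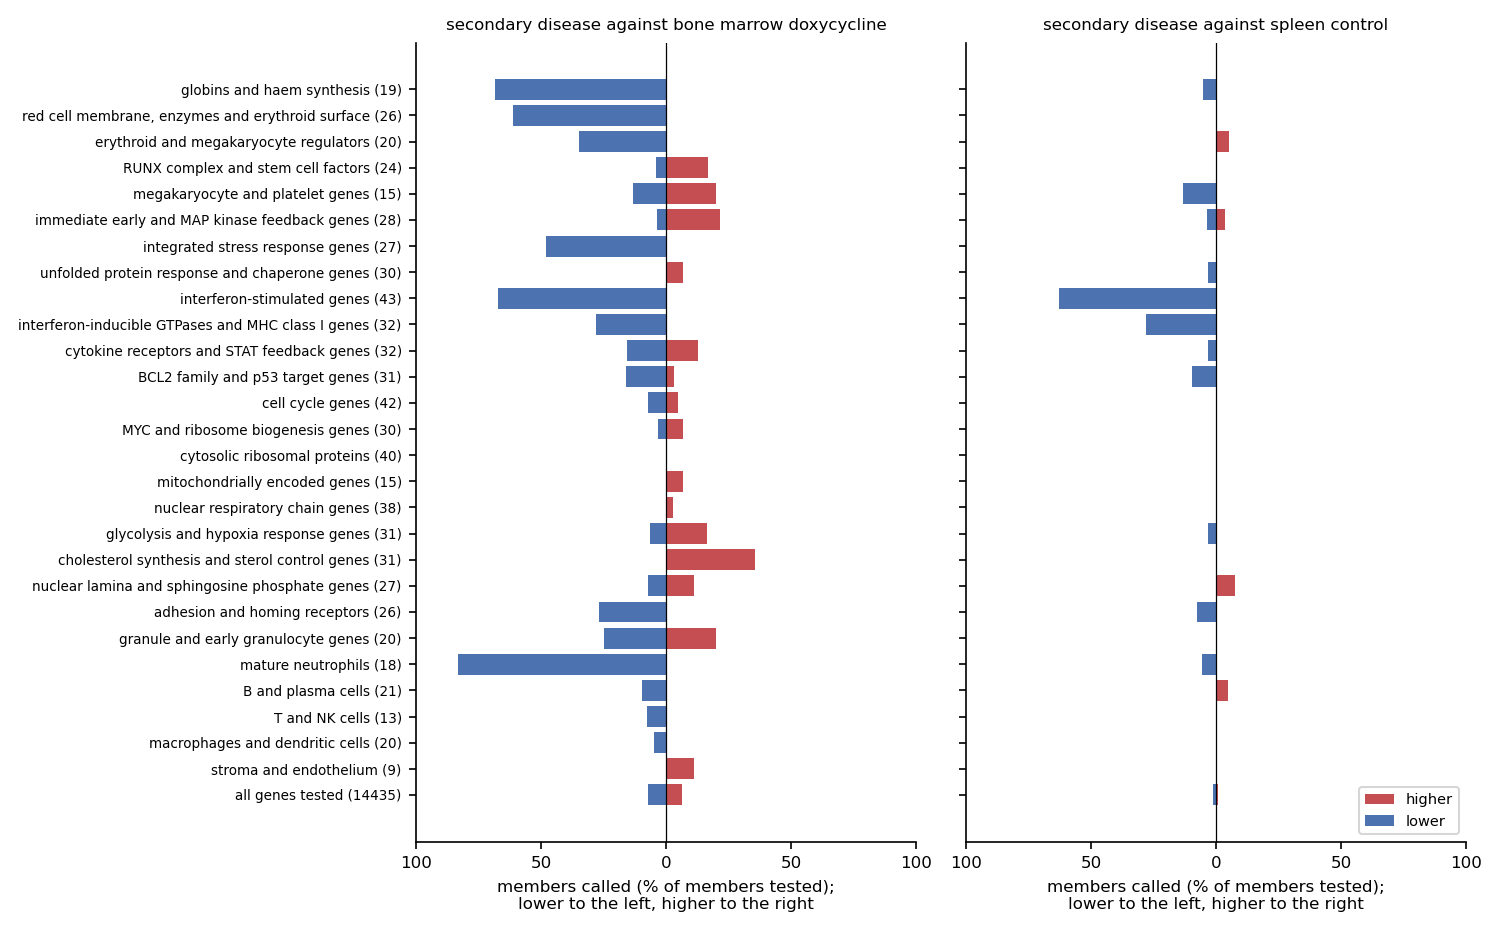
Share of the tested members of each of the 27 gene lists called lower (blue, left) or higher (red, right) in secondary disease, against bone marrow doxycycline (left panel) and against spleen control (right panel), with all genes tested as the last bar; members tested are in parentheses. Erythroid and stress response genes are called against bone marrow doxycycline and hardly against spleen control, whereas interferon-stimulated genes are called against both, 29 and 27 of 43.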

How the data were processed

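Poly(A) RNA of sorted GFP-positive cells was sequenced in 16 libraries in 5 groups. Per the submitters' processing notes, reads were handled with Trim Galore, FastQC, MultiQC, STAR and RSEM against GRCm38, with no versions or strand setting given. The authors deposited expected counts of 55487 genes, which need not be whole and were rounded here. The authors also deposited TPM per library, used here for the level of Thy1 and to check the columns. In that check 16 of 16 files correlated best with their own column, the lowest at r = 0.887 on gene-centred log values.

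Counts were filtered with filterByExpr, TMM-scaled and tested with edgeR 4.0.16 (robust quasi-likelihood, all 16 libraries in 1 model, R 4.3.3), called at a Benjamini-Hochberg adjusted p under 0.05. Alternatives used DESeq2 1.42.0, limma 3.58.1 (voom), other filters, a replicate block, subtraction of the control difference and each library left out. A level of 3 counts (0.0737 to 0.26 CPM) is the floor, and figures of levels add 0.5 CPM before taking log2. Fold changes compare depth-scaled levels, not amounts per cell. Genes were named for the largest called folds at an average log2 CPM of at least 3, for the largest 7-day folds, from 22 chosen genes and by the smallest p in each of 27 lists. Genes named for large folds also had to show no overlap of CPM between the 2 groups compared. In the comparison with secondary disease they also had to be called in the same direction without replicate 4. The members and lists were chosen with earlier results of these data known. A few named genes are not reported here. The scripts were tested on simulated data.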

Additional observations from a re-analysis of the deposited data

Results flagged for a closer look

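In 13 of 98 genes and in 2 of 6 gene groups examined, 1 of the 4 secondary disease libraries lay far from the others by Dixon's criterion at 95%, and in all 15 cases it was replicate 4. Chance alone gives such a value in about 1 in 20 groups, but that rate is no reference for genes named for large folds that replicate 4 itself carries, such as Camk2a, or for the neural-type list. Replicate 4 was higher in 10 cases. Its CPM was 104 for Tppp, 296 for Cplx2, 276 for Clstn1, 233 for Camk2a and 126 for Vgf. It was 11.3 for Clec11a, 9.8 for Btg2 and 8.93 for Tigar. Summed CPM were 7160 for neural-type genes, a list chosen after the data were seen, and 200 for T and NK cell genes. The T and NK cell list includes Thy1, which was far higher there than in any other library. The T cell genes Cd3e and Trac were at 0 CPM in replicate 4, and Cd3g was at 2.17 CPM. Replicate 4 was lower in 5 cases: 72.2 CPM for Cbfb, 99.4 for Runx1, 19.9 for Erg, 39.1 for Irf9 and 61.3 for Mdm2. This library also had the fewest counts and the highest mitochondrial share, and the part of these in the values was not tested.

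For 450 genes the difference between secondary disease and bone marrow doxycycline itself differed from the difference between spleen and bone marrow controls, by a test of that contrast in edgeR.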

How the results depend on the processing

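The 1955 genes called between secondary disease and bone marrow doxycycline became 910 without a filter on low counts and 450 with the control difference subtracted, and 509 to 2933 with single libraries left out. Calls were 46.5% higher, but 34.9% with limma-voom and 29.3 to 33.1% without 1 bone marrow doxycycline library. DESeq2 called 2898.

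The 949 genes of the 7-day response became 349 without the filter, 1996 with DESeq2, 4929 with only its own 2 groups in the fit and 23 to 2428 with single libraries left out. The 293 genes against spleen control became 134 without the filter, 756 with DESeq2 and 61 to 523 with single libraries left out. The 786 genes moved back became 286 of 349 without the filter, 1492 of 1996 with DESeq2, 1592 of 1950 in a fit of bone marrow control, bone marrow doxycycline and secondary disease, 265 of 949 with the control difference subtracted, and 22 to 1747 with single libraries left out. The unfiltered fit tested 28330 genes against 14435, and the cause of these shifts was not tested.

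Same-numbered deviations correlated at −0.0782 to 0.0943 between secondary disease and bone marrow doxycycline, which come from separate cohorts. Between secondary disease and spleen control they correlated at −0.0471 to 0.136. Same-numbered bone marrow and spleen libraries of the 7-day groups were not compared, so pairing there was not tested. With a replicate block 2481 genes were called in that comparison, 1966 at 7 days and 1420 moved back. Replicate 4 of secondary disease has no partner, so its own block level takes it up entirely.

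Among named genes, 4 changed sign, none of them called in the reported fit. Vgf ranged from −4.50 to 0.31 with single libraries left out, Runx1 from −0.01 to 0.20 and Dusp1 from −0.27 to 0.24. Dusp1 was −0.25 with the replicate block and −0.09 with limma-voom, and Myc was −0.07 with the control difference subtracted. Of 98 genes examined that subtraction left 49 with the same direction and side of the threshold, and 46 no longer passed. Depth limits replicate 4 most, where 12956 of the tested genes were detected.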
